A study of Rattus norvegicus with 6 samples.

Results

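The genes described here encode the main proteins of rat milk and the proteins that put fat into it: the caseins Csn1s1, Csn2, Csn1s2a and Csn3, the whey proteins Wap, Lalba and Glycam1, and the secretion genes Btn1a1, Xdh and Plin2. These 10 genes were taken by name, together with all probe sets that the platform annotation assigns to 1 of them alone. Such probe sets were found for 8 of the 10 genes, 9 probe sets in all, out of 31042 probe sets and 14217 genes on the array. Csn1s2a and Btn1a1 had none and were not analysed here. The brightest probe set by its mean over the 6 arrays stands for a gene. Of the 8 genes, 6 lay above the filter that removes the dimmest 40% of probe sets (a log2 level of 2.67), and Csn2 and Glycam1 lay below it.

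Milk protein genes are switched on in the alveolar cells of the mammary gland during pregnancy and lactation. Prolactin acts on its receptor Prlr and the kinase Jak2, which activates the transcription factor STAT5, and glucocorticoids and contact with basement membrane add to the response. Caseins are packed into micelles that carry calcium, Lalba turns the enzyme B4galt1 towards making lactose, and fat droplets coated with Plin2 leave the cell wrapped in membrane that holds Btn1a1 and Xdh.

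Affymetrix expression arrays measured the RNA of mammospheres, the floating spheres that single cells of the rat mammary gland form in culture. All animals were female Sprague Dawley rats. The hCG group received recombinant human chorionic gonadotropin, a pregnancy hormone that acts on the ovary, by daily injection at 100 IU per day for 21 days from 55 days of age, and the control group received buffer alone. Glands 4 and 5 were taken 21 days after the last injection from 3 animals per group. Cells enriched for epithelium were then grown for 7 days at 25000 cells per ml, in a medium to which EGF, basic FGF and heparin had been added. Each group has 3 arrays, numbered 5, 6 and 7, and nothing says that each array is a separate animal. P-values therefore reflect only how far these samples spread, and that spread may be technical. The comparison asks which milk genes differ in spheres formed weeks after the hormone was stopped.

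Epithelial markers were measured in both groups: Epcam lay between 6.36 and 7.97 on control arrays and between 6.90 and 7.17 on hCG arrays, on the log2 scale. Of 7 markers of mature, hormone-sensing luminal cells, Areg lay above the filter, between 6.45 and 7.81 over the 6 arrays, Esr1, Pgr, Foxa1 and Prlr lay below it, and Cited1 and Ly6d had no probe set of their own. Over all genes, limma's test after Benjamini-Hochberg adjustment called 105 of 10424 genes higher in hCG spheres (1.01%) and 85 lower (0.815%). Spiked-in bacterial poly-A RNAs, a control on labelling, averaged 5.07 ± 0.12 (SD, n = 3) on the log2 scale in controls and 4.14 ± 0.30 (SD, n = 3) in hCG samples, with no overlap (two-sided exact permutation p = 0.1, the lowest value possible with 3 against 3). This difference moved with every comparison below, and its part in them was not tested. As a measure of RNA quality, signal at the 3′ end minus the 5′ end was read for Actb and Gapdh. For Actb it ran from 1.46 to 2.18 on control arrays and from 1.55 to 1.75 on hCG arrays. For Gapdh it ran from 0.11 to 0.67 and from 0.05 to 0.16. Control 7 was the highest array on both, and the part of this in the results was not tested.

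In spheres from hCG-treated rats the mean levels of Csn3, Csn1s1 and Lalba were lower, by the largest amounts among the milk genes, but the 3 hCG arrays differed widely among themselves. Csn2 lay near the bottom of the scale in both groups, and the mean of Glycam1 over the 6 arrays lay just below the filter level. Xdh, Plin2 and Wap were lower by small amounts with no overlap between the groups. No milk gene passed limma's test over all genes (0 of 6 called, against 0.815% of all genes called lower). At an unadjusted p under 0.05, 4 of the 6 were lower, where 9.64% of all genes were.

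The caseins lie side by side on rat chromosome 14, in the order Csn3, Csn1s2b, Csn1s2a, Csn2 and Csn1s1 with a few other genes among them. The promoters of Csn1s1, Csn2, Csn3 and Lalba are printed because Csn1s1, Csn3 and Lalba varied together over the arrays while Csn2, a neighbour of Csn1s1, was dim on every array. Each runs 5′ to 3′ in the direction of the gene, from 250 bases before to 50 bases after its start, from RefSeq's rat assembly GRCr8. Capitals mark TTCNNNGAA, the letters of a STAT5 site, and TTTAAATA, a TATA-like run; no capitals means that neither occurs.
Csn1s1, chr14:20638800-20639099, minus strand: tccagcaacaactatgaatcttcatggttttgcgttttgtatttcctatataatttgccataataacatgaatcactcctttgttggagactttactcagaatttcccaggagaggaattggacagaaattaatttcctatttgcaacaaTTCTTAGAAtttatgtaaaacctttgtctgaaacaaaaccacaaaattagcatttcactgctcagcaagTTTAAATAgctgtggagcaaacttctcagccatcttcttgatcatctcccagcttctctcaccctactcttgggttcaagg
Csn2, chr14:20601574-20601873, plus strand: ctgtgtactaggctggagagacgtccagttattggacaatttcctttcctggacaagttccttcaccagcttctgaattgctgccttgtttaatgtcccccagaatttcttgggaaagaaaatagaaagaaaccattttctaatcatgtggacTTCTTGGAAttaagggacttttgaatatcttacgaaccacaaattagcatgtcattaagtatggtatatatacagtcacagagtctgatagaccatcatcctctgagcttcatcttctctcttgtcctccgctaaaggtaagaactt
Csn3, chr14:20439781-20440080, minus strand: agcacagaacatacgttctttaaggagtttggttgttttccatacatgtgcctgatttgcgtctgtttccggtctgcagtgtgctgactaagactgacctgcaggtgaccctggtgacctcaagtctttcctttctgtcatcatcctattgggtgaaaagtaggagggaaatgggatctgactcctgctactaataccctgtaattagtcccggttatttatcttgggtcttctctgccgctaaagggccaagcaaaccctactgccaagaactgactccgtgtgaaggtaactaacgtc
Lalba, chr7:131507023-131507322, minus strand: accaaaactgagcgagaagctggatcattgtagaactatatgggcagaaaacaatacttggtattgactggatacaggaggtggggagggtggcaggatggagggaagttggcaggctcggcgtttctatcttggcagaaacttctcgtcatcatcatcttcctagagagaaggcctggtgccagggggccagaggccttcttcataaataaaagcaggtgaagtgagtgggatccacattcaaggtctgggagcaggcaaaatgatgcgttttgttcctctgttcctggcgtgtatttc

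RefSeq's table held promoters for all 10 genes. On either strand, the letters TTCNNNGAA occur in the promoters of 4 of them, Csn1s1, Csn2, Csn1s2a and Glycam1, and in 8.87% of all 33469 promoters of the same length. In Csn1s1, Csn2 and Csn1s2a the match starts 100, 97 and 102 bases before the gene's start. TTTAAATA occurs in Csn1s1, in Csn1s2a and in 1 of 2 promoters of Plin2, and in 1.86% of all promoters. The other motifs searched on both strands were TATAAA, with no match among the 10 genes (14.2% of all promoters), and the glucocorticoid receptor half-site AGAACA, with a match in Csn3 and Csn1s2a (20.7%). No 2 of these matches overlap. A match is a description of the letters only. Csn1s1 and Csn2 both hold the STAT5 letters, and their levels on the arrays are given next.

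Csn3, kappa-casein, caps the surface of the casein micelle and keeps it in suspension. Its log2 level was 7.79, 9.41 and 9.56 on Control 5, 6 and 7, and 8.20, 5.69 and 4.34 on hCG 5, 6 and 7. The groups overlapped: hCG 5 lay above Control 5, while hCG 6 and hCG 7 lay below every control. The mean was 8.92 ± 0.99 (SD, n = 3) in controls and 6.08 ± 1.95 (SD, n = 3) in hCG spheres. The log2 change was -2.84 (SE 0.96, 95% interval -5.13 to -0.56, limma adjusted p = 0.145), a 7.18-fold lower level. Only 2 of the 10424 genes, Dusp2 and Npy, had a more negative change. Among the 3 hCG arrays Csn3 spanned 3.85 log2 units, the widest span of any gene tested, where the median gene spanned 0.17.

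Csn1s1, alpha-s1-casein, is one of the calcium-binding caseins of the micelle core. Its log2 level was 5.13, 6.70 and 6.43 on Control 5, 6 and 7, and 5.50, 2.84 and 2.82 on hCG 5, 6 and 7. The order of the arrays was close to that of Csn3, again with hCG 5 above Control 5, and with hCG 6 and hCG 7 near the filter level. The log2 change was -2.37 (SE 0.78, 95% interval -4.20 to -0.53, limma adjusted p = 0.137), a 5.15-fold lower level. Its span over hCG arrays, 2.68, was the fifth widest among all genes tested, and its span over control arrays was 1.57.

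Csn2, beta-casein, is the other main calcium-binding casein. Its log2 level lay between 1.33 and 1.56 on control arrays and between 1.48 and 1.56 on hCG arrays, all below the filter. The log2 change, from a fit with no filter, was 0.07 (SE 0.09, limma adjusted p = 0.715, where 1.88% of 14217 genes were called in either direction). At signal this low no difference in Csn2 was detectable. Of the other genes in and beside the casein cluster, Smr3a, Cabs1, Prr27 and Sult1d1 had probe sets of their own, and none exceeded 1.80 on any array.

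**Figure D1:**
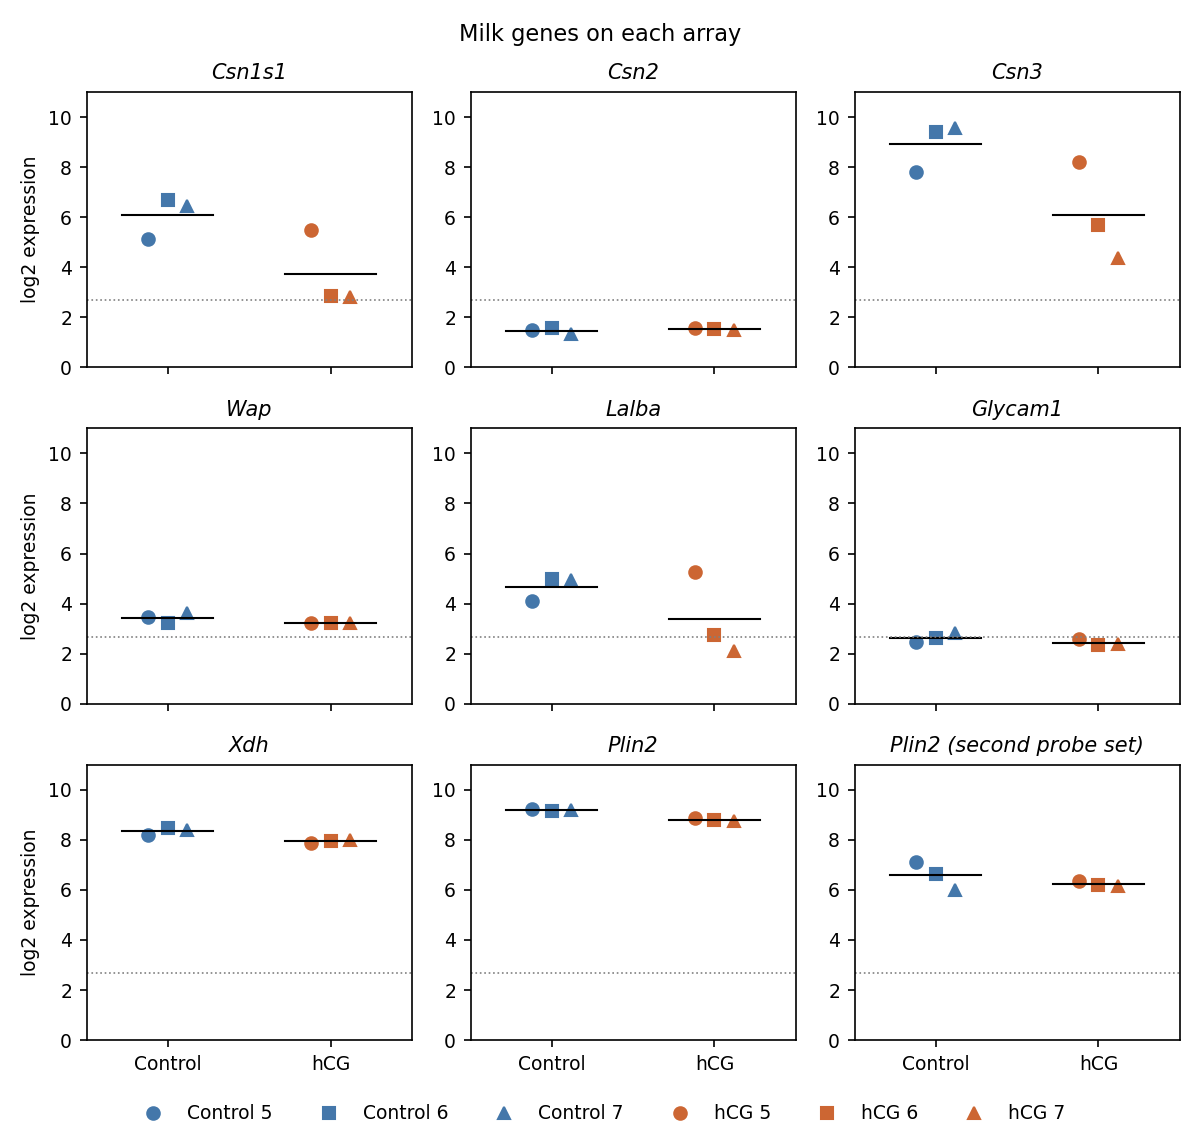
Log2 expression (y axis) of each milk gene on the 3 Control (blue) and 3 hCG (orange) arrays, with the shape giving the array number, a bar at the group mean and a dotted line at the filter level of 2.67. Csn3, Csn1s1 and Lalba are low on hCG 6 and hCG 7 but not on hCG 5, whereas Xdh and the brighter Plin2 probe set are slightly lower on all 3 hCG arrays.

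Lalba, alpha-lactalbumin, is the whey protein that makes lactose synthesis possible. Its log2 level was 4.11, 4.98 and 4.96 on Control 5, 6 and 7, and 5.25, 2.76 and 2.09 on hCG 5, 6 and 7. The highest and the lowest values of all 6 arrays were both hCG arrays, hCG 5 and hCG 7. The log2 change was -1.32 (SE 0.77, 95% interval -3.14 to 0.50, limma adjusted p = 0.343), a 2.49-fold lower level. Its span over hCG arrays, 3.16, was the second widest of all genes tested.

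Wap, the whey acidic protein, is a major whey protein of rodents. Its log2 level was 3.45, 3.24 and 3.60 on Control 5, 6 and 7, and 3.20, 3.20 and 3.21 on hCG 5, 6 and 7. All hCG values lay just below the controls, with an hCG span of only 0.0056. The log2 change was -0.22 (SE 0.11, limma adjusted p = 0.258), a 1.17-fold lower level at dim signal. Glycam1, a mucin-like glycoprotein of the whey fraction, lay between 2.46 and 2.82 on control and between 2.33 and 2.58 on hCG arrays. Its log2 change with no filter was -0.20 (SE 0.12, limma adjusted p = 0.396), and the groups overlapped.

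Xdh, xanthine dehydrogenase, is an enzyme of purine breakdown that also helps the fat droplet bud from the cell. Its log2 level was 8.18, 8.49 and 8.41 on Control 5, 6 and 7, and 7.86, 7.97 and 8.02 on hCG 5, 6 and 7. Every hCG value lay below every control, by a narrow margin. The log2 change was -0.41 (SE 0.11, 95% interval -0.66 to -0.16, limma adjusted p = 0.0897), a 1.33-fold lower level.

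Plin2, perilipin 2, coats cytoplasmic fat droplets in many cell types. The brighter probe set had log2 levels of 9.23, 9.15 and 9.19 on Control 5, 6 and 7, and 8.88, 8.80 and 8.76 on hCG 5, 6 and 7. The values were tight within each group and did not overlap. The log2 change was -0.37 (SE 0.08, 95% interval -0.56 to -0.19, limma adjusted p = 0.0582), a 1.29-fold lower level and the smallest p of the 8 genes. The dimmer probe set had a like change of -0.36 (SE 0.26), but its controls ran from 6.02 to 7.11 and overlapped the hCG arrays, at 6.16 to 6.35. The call on Plin2 lay close to the threshold: it passed with cyclic loess scaling (-0.42, limma adjusted p = 0.0487) and with a variance trend (adjusted p = 0.0344), and not with the mean of both probe sets (adjusted p = 0.186).

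**Figure D2:**
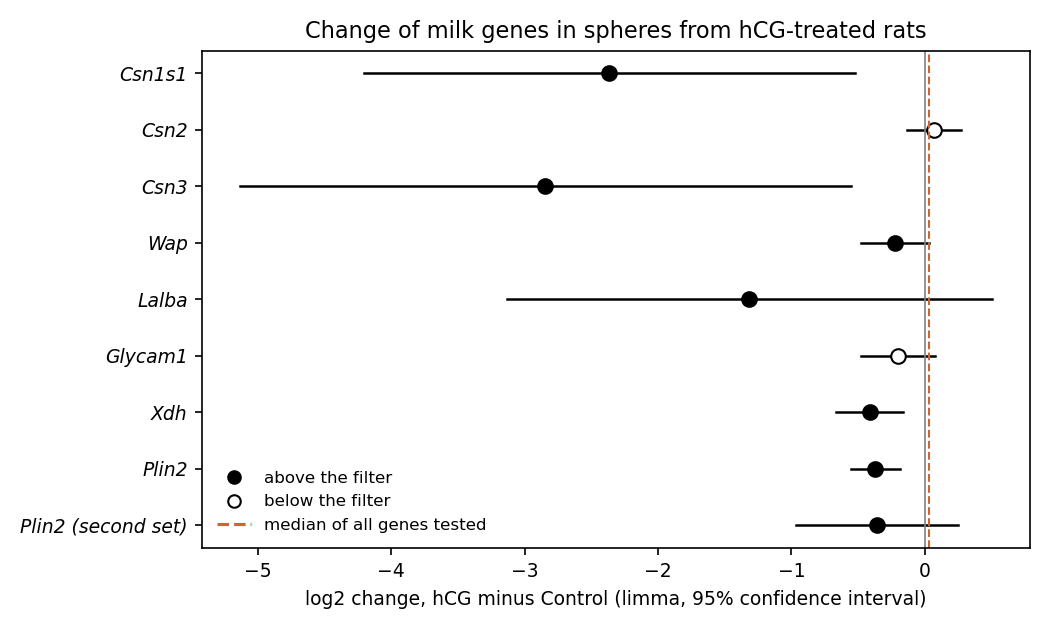
Log2 change, hCG minus Control (x axis), of each milk gene with its 95% confidence interval from limma; open circles are genes below the filter and the dashed line is the median of all genes tested, 0.03. Csn3, Csn1s1 and Lalba have the largest changes and the widest intervals, and the intervals of Xdh and the brighter Plin2 probe set are narrow and lie below 0.

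All hCG values lay below all control values in 3 of the 6 milk genes above the filter, Wap, Xdh and Plin2, where 12.3% of all genes did so. Csn3, Csn1s1 and Lalba are not among them. For Csn3 and Csn1s1, hCG 5 lay above Control 5 alone, and for Lalba it lay above every control. Leaving out hCG 5 moved the log2 changes of Csn3, Csn1s1 and Lalba to -3.90, -3.26 and -2.26. Leaving out Control 5 moved them to -3.41, -2.85 and -1.60, and leaving out hCG 7 to -1.98, -1.91 and -0.68. None of these fits called any of the 3 genes, and in each of them limma called 0 genes in all, against 190 with all arrays. With array weights, which count an outlying array for less, limma called Csn3 (-3.91, adjusted p = 0.0268), Csn1s1 (-2.92, adjusted p = 0.0231), Xdh and Plin2. That fit called 2663 of all 10424 genes.

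Relative to each gene's control mean, the log2 level of Csn3 was -1.13, 0.49 and 0.64 on Control 5, 6 and 7 and -0.73, -3.23 and -4.58 on hCG 5, 6 and 7. For Csn1s1 the hCG values were -0.59, -3.24 and -3.27, and for Lalba they were 0.57, -1.92 and -2.59. Over the 6 arrays, which include the difference between the groups, Pearson's r was 0.98 between Csn3 and Csn1s1, 0.95 between Csn3 and Lalba and 0.94 between Csn1s1 and Lalba, as a description. Between Csn3 and Xdh it was 0.66.

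Markers of luminal cells, which make milk, were read on the same arrays. Of 14 pan-luminal markers (keratins, claudins, Epcam, Cd24 and others), 13 were above the filter. Averaged over these genes, the distance from the control mean was -0.82, 0.19 and 0.63 on arrays 5, 6 and 7 of the controls. It was -0.40, -0.56 and -0.72 on hCG 5, 6 and 7. Their median log2 change was -0.54, from -1.42 for Cd24 to 0.11 for Krt8. Of the 13, 11 had a change below 0, or 84.6%, against 44.2% of all genes. All hCG values lay below all control values in 1 of the 13, or 7.69%, against 12.3% of all genes. The changes of Cdh1, Krt18 and Epcam were 0.00, -0.19 and -0.27, among those nearest 0. Those of Krt7, Cldn7, Prom1 and Cldn3 were larger, at -0.96, -0.92, -0.83 and -0.78. Cd24 was the only 1 of the 13 called by limma, at -1.42 (SE 0.15, adjusted p = 0.0289), where 0.815% of all genes were called lower. Markers of luminal progenitors and alveolar cells, of which 6 of 9 were above the filter and Kit and Elf5 below it, stood at -0.49, 0.02 and 0.47 on control arrays and at -0.48, -0.90 and -1.14 on hCG arrays. Limma called 1 of these 6, Lbp, a lipopolysaccharide-binding protein, which lay between 4.81 and 5.34 on control arrays and between 2.69 and 3.43 on hCG arrays (-2.12, adjusted p = 0.0289). Basal and myoepithelial markers, 9 of 11 above the filter, stood at -0.64, 0.13 and 0.51 on control arrays and at 0.53, 0.66 and 0.75 on hCG arrays. Fewer luminal cells and less milk RNA per cell cannot be told apart in RNA from whole spheres, and the part of these markers in the milk genes' values was not tested. Control 5, the control of lowest Csn3, Csn1s1 and Lalba, was also the control of lowest pan-luminal, progenitor and alveolar, and basal marker levels. It also had the lowest endothelial marker level of the controls (-0.34) and the highest macrophage marker level (0.69). How these levels relate to the milk genes was not tested.

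**Figure D3:**
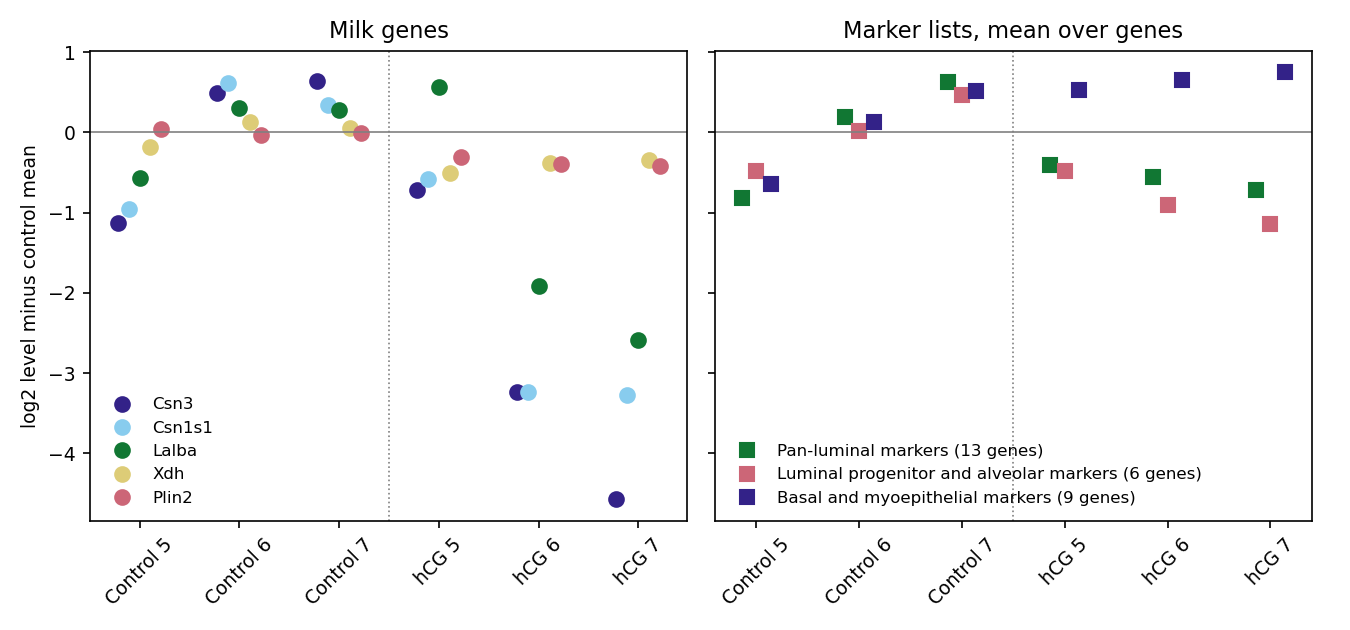
Log2 level minus the control mean (y axis) on each array for 5 milk genes (left) and for the mean of 3 marker lists (right), with control arrays left of the dotted line. On hCG 6 and hCG 7, Csn3 lies at -3.23 and -4.58 and pan-luminal markers lie at -0.56 and -0.72. On the same arrays luminal progenitor and alveolar markers lie at -0.90 and -1.14, and basal and myoepithelial markers at 0.66 and 0.75. On Control 5, Csn3 lies at -1.13 and pan-luminal markers at -0.82.

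Plin2 and Xdh are also made by fat cells, macrophages and endothelial cells. Of 9 adipocyte markers only Cfd and Fabp4 lay above the filter, with a mean relative level from -0.19 to 0.37 on control arrays and up to 1.64 on hCG arrays, all 3 above the controls, and Adipoq, Plin1 and Lep lay between 1.51 and 2.17 on all arrays. Pparg, the fat cell regulator on the same list, was below the filter by its mean but lay between 1.98 and 2.15 on control arrays and between 2.71 and 3.78 on hCG arrays (log2 change 1.2, limma adjusted p with no filter 0.0534). Of 9 macrophage markers 3 lay above the filter. Their mean relative level ran from -0.41 to 0.69 on control arrays and from -0.21 to 0.31 on hCG arrays, a mean of unlike changes: -1.33 for Cd68, with no overlap between the groups, 0.65 for Adgre1 and 0.90 for Lyz2. Below the filter, Mrc1 lay between 1.54 and 2.16 on control arrays and between 2.68 and 3.92 on hCG arrays (log2 change 1.47, limma adjusted p with no filter 0.0595). C1qa, with a change of 0.59, also had all hCG values above the controls, while Csf1r, Cd163, C1qb and C1qc, also below the filter, overlapped. Endothelial markers, 9 of 11 above the filter, ran from -0.34 to 0.49 on control and from 1.25 to 1.34 on hCG arrays, the opposite direction to Plin2 and Xdh. Fibroblast markers, 8 of 8 above the filter, ran from -0.03 to 0.04 on control arrays and from 0.10 to 0.29 on hCG arrays. Among them limma called Lum higher (1.13) and Dpt lower (-0.99), where 1.01% and 0.815% of all genes were called. Dcn lay between 12.33 and 12.60 over the 6 arrays and Dpt between 3.21 and 4.67, where Epcam lay between 6.36 and 7.97. The part of these cell types in the changes of Plin2 and Xdh was not tested.

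The other genes of milk synthesis came from 4 lists with 84 distinct genes, of which 77 had a probe set of their own and 58 lay above the filter. Limma called 1 of the 58 higher and 0 lower; at an unadjusted p under 0.05, 6 were higher and 9 lower, where 14.4% of all genes were higher and 9.64% lower. Their median log2 change was -0.05, where that of all genes was 0.03. All hCG values lay below all control values in 13 of the 58, or 22.4%, against 12.3% of all genes. In 6 of the 58 they lay above all control values, as they did in 2014 of all 10424 genes. The single called gene was Fabp4, a fatty acid carrier (1.91, SE 0.25, limma adjusted p = 0.0353), which fat cells and capillary endothelium also express. Without Control 7 limma called 6 of the 58, Fabp4 and Slc7a5 higher and B4galt1, Insig1, Scd and Scd2 lower. That fit called 584 of all 10424 genes. Without hCG 6 limma called Fabp4, Elovl6 and Dgat1, among 338 of all genes. Without any other single array it called 0 genes in all.

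Of 7 other milk proteins above the filter, 5 had a change below 0 (71.4%, against 44.2% of all genes), with a median of -0.32. Lcn2, an iron-trapping defence protein of milk, had the largest, -1.36 (SE 0.46, limma adjusted p = 0.142). Its log2 level was 9.21, 10.01 and 10.70 on Control 5, 6 and 7 and 9.37, 8.51 and 7.96 on hCG 5, 6 and 7, so that hCG 5 again lay above Control 5. By limma, the change of Spp1, osteopontin, was -0.32 (SE 0.12, adjusted p = 0.161), and that of Tfpi2, a protease inhibitor, was -0.83 (SE 0.36, adjusted p = 0.213). The fat globule protein Mfge8 had a change of -0.40 and Wfdc18, a relative of Wap, one of 0.12; Lcn2, Mfge8 and Wfdc18 are also on the list of luminal progenitor and alveolar markers. Lpo, Muc1, Folr1 and Fcgbp were below the filter.

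Among 22 genes of fat synthesis and the fat globule, 16 had a change below 0 (72.7%, against 44.2% of all genes), with a median of -0.16. Dgat1 and Dgat2, the enzymes that make triglyceride from diglyceride, had no overlap between the groups. Dgat1 lay between 8.30 and 8.45 on control arrays and between 7.66 and 7.99 on hCG arrays, a log2 change of -0.55 (SE 0.11, limma adjusted p = 0.0567). Dgat2 lay between 5.92 and 6.15 on control arrays and between 5.57 and 5.66 on hCG arrays, a log2 change of -0.42 (limma adjusted p = 0.0622, SE 0.09). The fatty acid synthase gene Fasn, at 8.35, 8.41 and 8.44 on Control 5, 6 and 7 and 8.33, 8.17 and 8.17 on hCG 5, 6 and 7, had a change of -0.17 (limma adjusted p = 0.264). Thrsp and Olah, which promote milk fat synthesis, were below the filter with Gpam, Cidec and Cel.

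Among 13 genes of lactose synthesis and transport, 7 had a change below 0 (53.8%, against 44.2% of all genes) and the median was -0.03. B4galt1, the partner of Lalba in lactose synthesis, lay between 6.87 and 7.18 on control arrays and between 6.56 and 6.74 on hCG arrays. Its log2 change was -0.42 (SE 0.11, limma adjusted p = 0.0901). By limma, the glucose transporter Slc2a1 differed by -0.52 (SE 0.23, adjusted p = 0.225) and the amino acid transporter Slc7a5 by 0.56 (SE 0.23, adjusted p = 0.194). The calcium pump Atp2b2, the phosphate transporter Slc34a2, the zinc transporter Slc30a2 and the water channels Aqp3 and Aqp5 were below the filter.

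Among 16 genes of the hormonal control of milk genes, 6 had a change below 0 (37.5%, against 44.2% of all genes) and the median was 0.05. Jak2, the kinase of the prolactin receptor, lay between 5.16 and 5.62 on control arrays and between 5.75 and 6.09 on hCG arrays, 0.57 higher on average (SE 0.15, limma adjusted p = 0.0875). By limma, Id2, a regulator needed for alveolar growth, differed by 0.49 (SE 0.13, adjusted p = 0.10) and Stat6 by -0.34 (SE 0.13, adjusted p = 0.183). Stat5a, the main STAT5 of the mammary gland, differed by 0.02 (SE 0.13, limma adjusted p = 0.943), and the glucocorticoid receptor gene Nr3c1 by 0.17 (SE 0.08, limma adjusted p = 0.274). The receptor Prlr, the alveolar transcription factor Elf5, and Socs2, Socs3 and Tnfsf11 were below the filter by their means. Prlr stood at 2.52, 2.43 and 3.55 on Control 5, 6 and 7 and between 2.07 and 2.60 on hCG arrays. Socs3 lay between 2.66 and 2.88 on control arrays and between 2.36 and 2.49 on hCG arrays (limma adjusted p with no filter 0.132). Elf5 reached at most 2.56 on control arrays and 2.13 on hCG arrays, and its lowest value, 1.70, was on hCG 7.

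**Figure D4:**
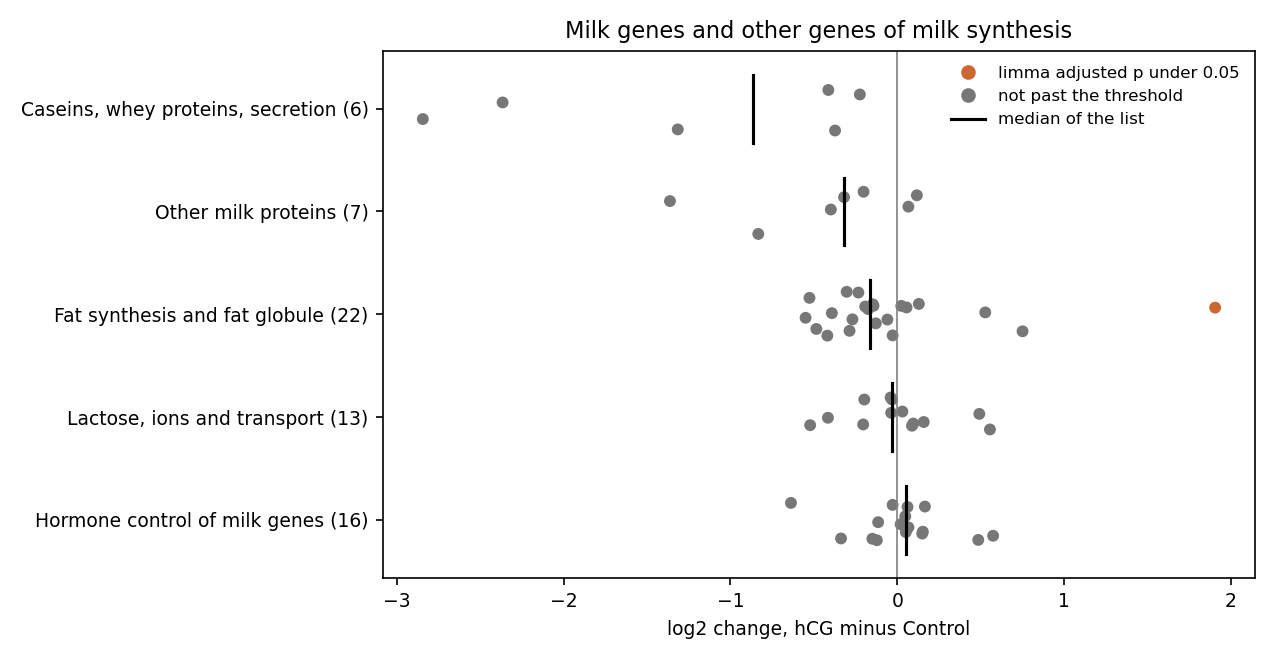
Log2 change, hCG minus Control (x axis), of each gene above the filter in the milk genes and in 4 lists of other genes of milk synthesis (rows, with the number of genes), with a bar at each list's median; vertical scatter has no meaning. Fabp4, at 1.91, is the only gene past limma's threshold.

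The genes whose levels followed a milk gene most closely over the 6 arrays were found by Pearson's r, as a description. For Csn3, the milk gene of widest range, they were Fndc4 (0.98), the prion protein gene Prnp (0.98), Csn1s1 (0.98), Chi3l1 (0.98), a secreted chitinase-like protein, and Snn (0.97). Chi3l1 stood at 3.98, 5.05 and 5.24 on Control 5, 6 and 7 and at 3.93, 2.80 and 2.52 on hCG 5, 6 and 7. In all, 20 genes had an r above 0.95 with Csn3. For Plin2, the brightest milk gene, they were Osbpl2 (0.99), RT1-A (0.99), Angptl4 (0.99), an inhibitor of lipoprotein lipase, the pentose pathway enzyme Tkt (0.99) and Cox17 (0.99), with 68 genes above 0.95. Angptl4 lay between 8.56 and 8.69 on control arrays and between 8.04 and 8.29 on hCG arrays, a log2 change of -0.46 (limma adjusted p = 0.0582).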

How the data were processed

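The authors deposited a table of log2 expression with 1 row for each of 31099 probe sets and 1 column for each of 6 arrays. RMA, MAS5 and limma appear in the submitters' processing notes, without versions or roles. The log2 scale was read from the values, which run from 0.736 to 13.1 with array medians from 3.44 to 3.48, and scanner files were not used here. A normalization that makes arrays alike hides a change shared by most genes.

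Groups and array numbers came from the titles. The 57 control probe sets and the dimmest 40% of the others by mean over the 6 arrays were left out, which left 18625 probe sets. Names came from the platform annotation (20826 probe sets with 1 gene, 436 with several, 9780 with none), updated through Entrez numbers with RefSeq's rat table for 20758. Each gene was represented by its brightest probe set, giving 10424 genes.

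The groups were compared with limma 3.58.1 (lmFit, then eBayes; R 4.3.3), two-sided, with Benjamini-Hochberg adjustment over genes at 0.05; genes below the filter took their values from a fit with no filter. Precision is limited by the number of arrays, which leaves 4 residual degrees of freedom. The test was tried on simulated data. The genes and lists were chosen with earlier results of these data known. Named genes were the milk genes, the 3 of smallest p in each list, those below the filter where few, and the 5 of highest r for 2 milk genes; Epcam, Cd24, Lbp, other cell type markers, Mfge8, Wfdc18, Fasn, Stat5a, Nr3c1, Elf5 and the genes beside the caseins were added after their values were seen. Alternatives were other filters, median centring, quantile and cyclic loess scaling, array weights, a replicate block by array number, a variance trend, robust eBayes, the mean of probe sets, and each array left out. The planned pseudocounts were for linear values and were not needed.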

Additional observations from a re-analysis of the deposited data

How the results depend on the processing

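No milk gene changed direction under any alternative run, and 116 of 122 single values of the 8 genes also kept their side of limma's threshold. The 6 that did not were now called: with array weights Csn1s1 (-2.92), Csn3 (-3.91), Xdh (-0.34) and Plin2 (-0.41), with cyclic loess Plin2 (-0.42) and with a variance trend Plin2 (-0.37). The count of milk genes called was thus 4 of 6 with array weights, 1 with cyclic loess, 1 with a trend and 0 otherwise. Over all 10424 genes the counts called were 2663, 196 and 306 in the same order. The cause of these differences was not tested. The 116 include all values from the fits without Control 5, Control 6, hCG 5 or hCG 7, where limma called 0 genes in all. Staying uncalled in those fits says nothing particular about the milk genes. With 1 array left out, log2 changes ran from -3.90 to -1.98 for Csn3, -3.26 to -1.91 for Csn1s1, -2.26 to -0.68 for Lalba, -0.50 to -0.35 for Xdh and -0.41 to -0.35 for Plin2. Those of Wap ran from -0.32 to -0.14, of Glycam1 from -0.28 to -0.10 and of Csn2 from 0.00 to 0.12.

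Over all genes 190 were called, and 2663 with array weights, 306 with a trend and 118 with the replicate block. Over probe sets 298 were called, and 4253, 500 and 1 in the same order. With 1 array left out, genes called ran from 0 (without Control 5, Control 6, hCG 5 or hCG 7) through 338 (without hCG 6) to 584 (without Control 7), and probe sets from 0 to 1064. Of the 58 other milk pathway genes 1 was called, 16 with array weights, where 2663 of all 10424 genes were called, 2 with a trend and 0 to 6 with 1 array left out. The labels do not say whether array numbers pair the samples. Deviations of same-numbered arrays from their group means correlated at -0.09, 0.13 and 0.00, which with 3 arrays per group cannot settle it. The replicate block called 0 milk genes, and so did the fit without it. Without hCG 6 the poly-A spike difference was -1.10, against -0.93. Signal near the filter limits Csn2, Glycam1, Wap and the hCG values of Csn1s1 and Lalba.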

Other observations

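Of the 10 genes with the widest span over the 3 hCG arrays, 3 were milk genes: Csn3 (3.85), Lalba (3.16) and Csn1s1 (2.68). In each of them hCG 5 was the highest hCG array. In all of the other 7, hCG 5 was the lowest: Giot1 (4.60 on hCG 5, 7.52 on hCG 6 and 6.25 on hCG 7), the chemokines Cxcl13 (5.87, 8.71 and 6.96) and Cxcl2 (5.43 on hCG 5 and 6.75 on hCG 7), Rem2 (4.10, 6.63 and 5.56), the IGF-binding protein Igfbp5 (6.81, 9.32 and 7.95), the deiodinase Dio3 (4.52, 6.85 and 4.90) and Myl11 (3.75, 5.74 and 6.13). These genes were chosen for their span after the values were seen, and no test was made.

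The brighter Plin2 probe set spanned 0.079 over control arrays, where the median gene spanned 0.26.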
